A study of Mus musculus with 12 samples.

Results

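Serum response factor (*Srf*) and 9 genes of the contractile actin cytoskeleton (*Acta2*, *Actg2*, *Tagln*, *Cnn1*, *Myl9*, *Vcl*, *Tpm1*, *Tpm2*, and *Actn1*) were examined. These 10 genes were selected by symbol from the 51490 genes of the deposited table, with earlier results of these data known and no threshold on a measured value. All 10 were in the table and all 10 were among the 15037 genes that passed the filter for low counts. Expression was measured by RNA-seq in immortalized mouse embryonic palatal mesenchyme (iMEPM) cells, a line that derives from the mesenchyme of the secondary palate of a *Cdkn2a*-/- mouse embryo. The study compared cells with reduced levels of the splicing factor Srsf3 with control cells, each with and without PDGF-AA, a ligand of the receptor PDGFRα.

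The 4 groups had 3 biological replicates each. Scramble -PDGF-AA samples expressed a scramble shRNA and received no ligand, and for scramble +PDGF-AA samples the ligand was added at 10 ng/mL, 1 hr before collection. ShSrsf3 -PDGF-AA and shSrsf3 +PDGF-AA samples expressed an shRNA against the 3’ UTR of *Srsf3* and were left unstimulated or stimulated in the same way. All 4 groups carried the *Cdkn2a* deletion, an integrated lentiviral shRNA, puromycin selection, and sorting for high GFP. The study's methods describe serum starvation of the cells before PDGF-AA is added. They do not restate it for the RNA-seq samples. Each shRNA was represented by 1 stable line, so that the effect of the shRNA and other differences between the 2 lines cannot be told apart.

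SRF is a transcription factor that binds a DNA element called the CArG box. It works with 2 classes of partner. The myocardin-related factors MRTF-A and MRTF-B are held in the cytoplasm by monomeric actin and enter the nucleus when actin polymerizes, whereas ternary complex factors of the Elk family are phosphorylated by ERK downstream of growth factor receptors. The first route is best known for genes of the contractile cytoskeleton and the second for immediate early genes. The encoded proteins build and control actin filaments: α- and γ-smooth muscle actin (*Acta2* and *Actg2*) form filaments, tropomyosins (*Tpm1* and *Tpm2*), transgelin (*Tagln*), and calponin (*Cnn1*) bind along them, the regulatory light chain encoded by *Myl9* belongs to non-muscle and smooth muscle myosin II, α-actinin-1 (*Actn1*) crosslinks filaments, and vinculin (*Vcl*) couples them to adhesions. *Acta2*, *Tagln*, and *Cnn1* are widely used as markers of smooth muscle cells and myofibroblasts, and are also expressed by cultured mesenchymal cells.

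The CArG box is shown here because it is the element through which SRF acts on such genes, *Srf* itself included. Promoter windows of 250 bases before to 50 bases after the transcription start were available from RefSeq (GRCm38.p6) for 8 of the 10 genes. They were searched on both strands for a 10-base CArG box, CC followed by 6 bases that are each A or T and then GG. The box was present in 3 of the 8 windows, and in 535 of all 32851 windows of this length (1.63%). *Srf* had 2 boxes, 82 and 62 bases upstream of the start. *Vcl* had 1 box 227 bases upstream and *Myl9* had 1 box 161 bases upstream. The matches are printed 5’ to 3’ with 10 bases on either side and the box in capitals. They lie at chr17:46556225-46556254 (minus strand), chr17:46556205-46556234 (minus strand), chr14:20929161-20929190 (plus strand), and chr2:156775293-156775322 (plus strand) of GRCm38.p6, in this order.

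Srf, box 1: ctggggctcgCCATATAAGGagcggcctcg
Srf, box 2: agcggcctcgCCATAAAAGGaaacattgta
Vcl: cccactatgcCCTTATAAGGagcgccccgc
Myl9: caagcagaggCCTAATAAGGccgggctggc

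No 10-base CArG box of this exact form was present in the windows of *Acta2*, *Cnn1*, *Tpm1*, *Tpm2*, or *Actn1*. *Actg2* and *Tagln* had no window. Such a match is a sequence in a window and not a measurement of binding, and elements outside these windows were not searched. Boxes that differ from the pattern in any base were not searched for either, so a window without a match may still hold such a box.

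Total counts were between 30958966 and 76123359 per sample. Counts of the 10 genes were between 5112 and 458226 per sample, and the 10 genes together held 1.53% to 1.73% of all counts. The 2 lines were first checked for the targeted gene. Levels are given in CPM, counts scaled to a common normalized library size. *Srsf3* averaged 206 ± 6.59 CPM in unstimulated scramble cells against 162 ± 1.46 CPM in unstimulated shSrsf3 cells, and 222 ± 8.07 against 165 ± 4.33 CPM with ligand (SD, n = 3). The knockdown line was lower by the quasi-likelihood test of edgeR, with a log2 fold change of -0.34 in unstimulated (adjusted p = 7.95e-06) and -0.43 in stimulated cells (adjusted p = 9.54e-07), as labeled. Of the 31-base sequences of *Srsf3* transcripts, 12.4% also occur in other genes. In the study's methods, 3 libraries have the lowest mapping rates, replicates 1 and 2 of the scramble -PDGF-AA group together with replicate 2 of the scramble +PDGF-AA group. Scramble -PDGF-AA replicate 3 was the lowest of its group for 8 of the 10 genes, all but *Actg2* and *Vcl*, so results that rest on this group were recomputed without the 3 libraries. In that fit replicate 3, the single scramble -PDGF-AA library left, was assumed to vary like the libraries of the other groups. Only log2 fold changes are therefore given from that fit.

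All 9 mesenchyme markers (among them *Prrx1*, *Twist1*, *Pdgfra*, and *Col1a1*) were detected, with a summed level of 31515 to 37042 CPM. This sum is mainly that of *Col1a1*, *Col1a2*, and *Vim* (mean counts of 890893, 565427, and 238240). *Osr2* and *Msx1* were low, with mean counts of 182 and 63.2. Of 6 smooth muscle markers outside the 10 genes, 5 passed the filter, with a summed level of 449 to 568 CPM. *Myocd*, the coactivator that defines smooth muscle and cardiac lineages, did not pass the filter (mean count of 4.67). The skeletal muscle markers *Myod1* and *Ckm* were at 0 in all 12 samples. The levels below are therefore levels of smooth muscle type contractile genes in cultured mesenchyme cells. As in any bulk sample, a different share of cells that express a gene and a different amount of RNA per cell cannot be told apart.

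Between genes, levels were compared per kilobase of the canonical transcript. In scramble -PDGF-AA samples, *Acta2* was the most abundant of the 10, at 2567 CPM per kb, followed by *Tpm1* at 1738, *Tagln* at 754, and *Myl9* at 434 CPM per kb. *Vcl* (326), *Tpm2* (188), *Actn1* (184), *Actg2* (129), *Cnn1* (52.6), and *Srf* (44.7 CPM per kb) followed. *Tpm2* and *Actn1* are neighbors in this order whose means differed by less than their SD of 23.2 and 11.1 CPM per kb. The first 5 places and the last 2 were the same in all 4 groups. In shSrsf3 -PDGF-AA samples *Actg2* moved from the eighth to the sixth place, at 217 CPM per kb. Among all genes tested and without the length scaling, *Acta2* was the eighth and *Tpm1* the eighteenth gene by mean level over the 12 samples.

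Comparison of scramble and shSrsf3 samples asked which of these genes differ between the 2 lines. Without ligand, 7 of the 10 genes differed (adjusted p of 0.05 or less), 5 higher and 2 lower in shSrsf3 samples. Of all genes tested, 45.9% differed in this comparison, 22.2% higher and 23.7% lower, against which the members' count is to be read. With ligand, 7 of the 10 differed, 4 higher and 3 lower, where 41.0% of all genes differed, 20.3% higher and 20.7% lower. The values of the 2 groups did not overlap for 7 genes without and 9 genes with ligand, compared to 53.3% and 52.6% of all genes. None of the 10 genes reached the 2-fold minimum that the study sets for differentially expressed (DE) genes, in edgeR's test, a minimum that 5.75% and 5.42% of all genes passed. The median log2 fold change of the 10 genes was 0.14 without and 0.09 with ligand, and that of all genes was -0.02 and -0.01. Across the 10 genes, 4 were higher in shSrsf3 samples in both comparisons (*Actg2*, *Tagln*, *Cnn1*, and *Myl9*), 2 were lower in both (*Acta2* and *Actn1*), *Srf* and *Tpm1* differed in 1 of them, and *Vcl* and *Tpm2* in neither.

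**Figure D1:**
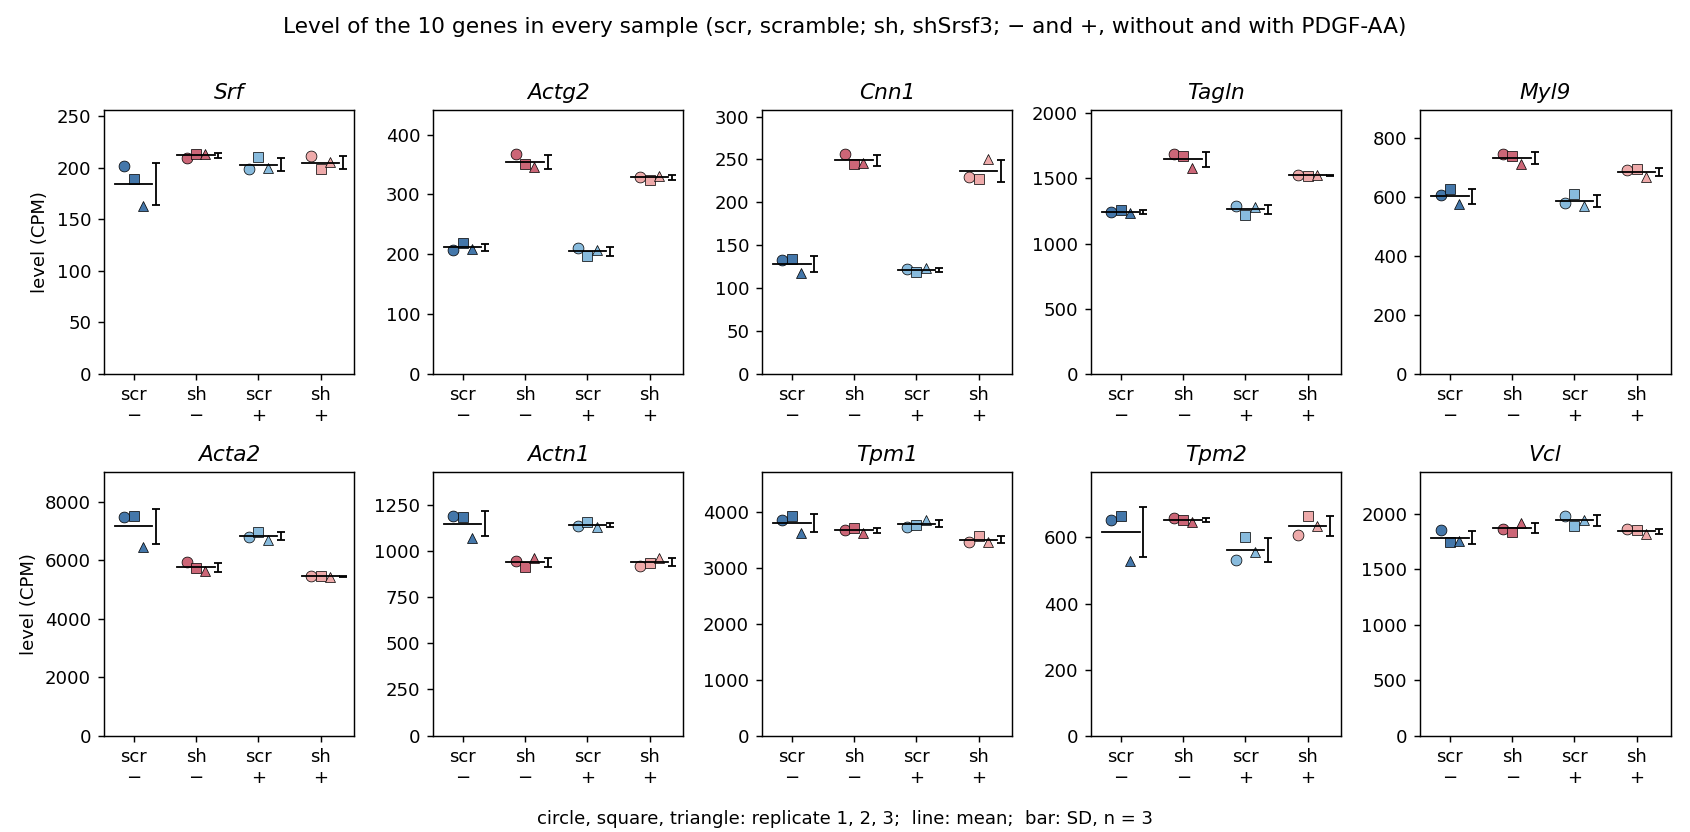
Level of the 10 genes in CPM (vertical axes, from 0) in each of the 12 samples, by group on the horizontal axes; symbols are replicates, lines are means, and bars are SD (n = 3). *Actg2*, *Cnn1*, *Tagln*, and *Myl9* are higher in all 6 shSrsf3 samples than in all 6 scramble samples, *Acta2* and *Actn1* are lower in all 6, and the levels of *Srf*, *Tpm1*, *Tpm2*, and *Vcl* overlap.

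*Srf* (ENSMUSG00000015605.8, chr17:46857767-46867119 on the minus strand of GRCm39, 7 exons) was at 201, 189, and 162 CPM in scramble -PDGF-AA replicates 1, 2, and 3. It was at 209, 213, and 213 CPM in shSrsf3 -PDGF-AA samples. The lowest shSrsf3 value was above the highest scramble value, but replicate 3 of the scramble group alone was far below the others. *Srf* was 1.15-fold higher in shSrsf3 samples without ligand (log2 fold change 0.20 ± 0.061 SE, adjusted p = 0.0151 from edgeR's test). The difference was 0.13 (adjusted p = 0.0167) without scramble -PDGF-AA replicate 3 and 0.38 without the 3 libraries of lowest mapping rate. Its size thus depended on which scramble -PDGF-AA libraries were used. With ligand, the scramble replicates had 198, 210.5, and 200.0 CPM of *Srf* and the shSrsf3 replicates 211, 198, and 205 CPM. These values overlapped (log2 fold change 0.01, 95% interval -0.12 to 0.14, adjusted p = 0.885).

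The partners of SRF moved in both directions. Of the 7 genes for coactivators and cofactors, 6 were tested, of which 3 were higher, 1 was lower, and 2 did not differ in shSrsf3 samples, both without and with ligand. Their median log2 fold change was 0.07 and 0.12. The shares of all genes that differed, 45.9% and 41.0%, are the background for this and the following lists. *Mrtfa*, which encodes MRTF-A, was lower: unstimulated scramble cells had 172 ± 6.51 CPM against 154 ± 2.63 CPM for the knockdown line (SD, n = 3), a log2 fold change of -0.16 (adjusted p = 0.00537), followed by -0.12 in stimulated cells (adjusted p = 0.0352). *Mrtfb* had log2 fold changes of -0.03 and -0.03 (adjusted p = 0.656 and 0.603). The ternary complex factors *Elk4* (0.28 and 0.25) and *Elk1* (0.17 and 0.18) were higher, as was *Fhl2* (0.40 and 0.24), a LIM protein that binds SRF.

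The smooth muscle actins moved in opposite directions. *Acta2* (ENSMUSG00000035783.11, chr19:34217737-34232990, minus strand, 9 exons) was at 7481, 7526, and 6464 CPM in the scramble -PDGF-AA replicates. The shSrsf3 -PDGF-AA replicates had 5934, 5731, and 5633 CPM. All 3 shSrsf3 values were below all 3 scramble values. In stimulated cells, the scramble replicates had 6789, 6968, and 6700.1 CPM of *Acta2* and the shSrsf3 replicates 5456, 5451, and 5436 CPM, again without overlap. The fall was 1.24-fold without ligand (log2 fold change -0.31 ± 0.046 SE, adjusted p = 1.04e-04) and 1.25-fold with ligand (-0.32 ± 0.046, adjusted p = 7.92e-05). Without the 3 libraries of lowest mapping rate the log2 fold change was -0.17 without ligand and -0.31 with ligand.

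*Actg2* (ENSMUSG00000059430.16, chr6:83489887-83513551, minus strand, 9 exons) was at 206, 219, and 209 CPM in the scramble -PDGF-AA replicates. It was at 368, 351, and 345 CPM in shSrsf3 -PDGF-AA samples. The gap between the groups was far larger than the spread within either. With ligand, the scramble values were 210.4, 197, and 207 CPM and those of shSrsf3 cells 329.9, 324, and 332 CPM. *Actg2* was 1.68-fold higher without ligand (log2 fold change 0.75 ± 0.038 SE, adjusted p = 4.60e-09) and 1.60-fold higher with ligand (0.68 ± 0.038, adjusted p = 1.36e-08). Its log2 fold change stayed between 0.72 and 0.77 without and between 0.65 and 0.70 with ligand over all 19 alternative settings.

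The balance between the actins was examined per length over the 6 actin genes. *Acta2* held 31.4% of this signal in scramble -PDGF-AA, 24.9% in shSrsf3 -PDGF-AA, 29.7% in scramble +PDGF-AA, and 24.6% in shSrsf3 +PDGF-AA samples (means, n = 3). *Actg2* held 1.58%, 2.61%, 1.52%, and 2.53%. For 100 units of *Acta2* there were 4.70 to 5.50 units of *Actg2* in the 6 scramble samples and 10.1 to 10.6 units in the 6 shSrsf3 samples. *Actb*, the gene for cytoplasmic β-actin, held 47.2%, 50.7%, 47.4%, and 50.2%. It was higher in shSrsf3 samples without ligand (log2 fold change 0.12, adjusted p = 0.00670) and did not pass the test with ligand (0.03, adjusted p = 0.513). *Actg1*, for cytoplasmic γ-actin, had log2 fold changes of 0.16 (adjusted p = 0.00713) and 0.03 (adjusted p = 0.563). The values of *Actb* and *Actg1* are uncertain, since 19.8% and 55.9% of their 31-base sequences also occur in other genes. This share was at most 0.978% for the 10 genes. *Acta1*, for skeletal muscle actin, rose from 24.3 ± 0.529 CPM in unstimulated scramble cells to 30.4 ± 0.789 CPM in unstimulated shSrsf3 cells (log2 fold change 0.32, adjusted p = 4.00e-05). With ligand it had 25.2 ± 1.01 against 24.3 ± 1.03 CPM (-0.05, adjusted p = 0.423). Cardiac actin, encoded by *Actc1*, did not pass the filter.

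**Figure D2:**
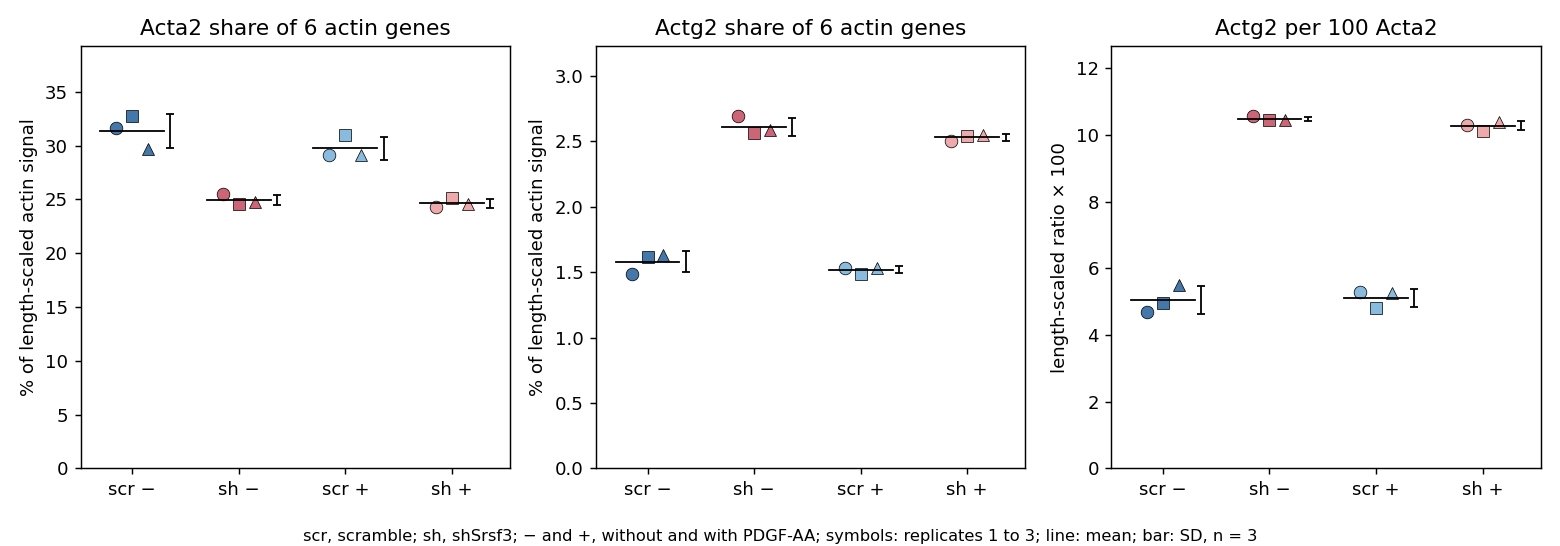
Share of *Acta2* and *Actg2* in the length-scaled signal of 6 actin genes (left and center, in percent) and units of *Actg2* per 100 units of *Acta2* (right), by group; symbols are replicates, lines are means, and bars are SD (n = 3). The ratio lies between 4.70 and 5.50 in all scramble samples and between 10.1 and 10.6 in all shSrsf3 samples, with or without ligand.

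Genes for proteins that bind along actin filaments included the largest change among the 10. *Cnn1* (ENSMUSG00000001349.7, chr9:22010512-22020926, plus strand, 7 exons) encodes calponin, an inhibitor of actomyosin ATPase in smooth muscle. The scramble -PDGF-AA replicates had 133, 134, and 117 CPM and the shSrsf3 -PDGF-AA replicates 256, 245, and 246 CPM. After stimulation the values were 122, 119, and 124 CPM (scramble) against 230.0, 228, and 251 CPM (shSrsf3). All 6 shSrsf3 values were above all 6 scramble values. *Cnn1* was 1.95-fold higher both without ligand (log2 fold change 0.96 ± 0.052 SE, adjusted p = 8.92e-09) and with ligand (0.96 ± 0.053, adjusted p = 9.88e-09). It was the 589th gene of 15037 in order of log2 fold change without ligand, with 3.91% of genes above it. Without the 3 libraries of lowest mapping rate, its log2 fold change without ligand was 1.08, past 2-fold in size.

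*Tagln* (ENSMUSG00000032085.7, chr9:45840909-45847404, minus strand, 5 exons), which encodes transgelin or SM22α, was at 1241, 1259, and 1233 CPM in the scramble -PDGF-AA replicates. It was at 1689, 1671, and 1578 CPM in shSrsf3 -PDGF-AA samples. The stimulated scramble cells had 1287, 1223, and 1277 CPM, and the stimulated shSrsf3 cells 1523, 1521, and 1525 CPM. The scramble values were all below the shSrsf3 values, and the shSrsf3 samples without ligand were all above those with ligand. *Tagln* was 1.32-fold higher without ligand (log2 fold change 0.40 ± 0.032 SE, adjusted p = 2.94e-07) and 1.21-fold higher with ligand (0.27 ± 0.032, adjusted p = 1.43e-05).

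*Myl9* (ENSMUSG00000067818.8, chr2:156617084-156623579, plus strand, 4 exons) encodes a regulatory light chain through which myosin light chain kinase activates myosin II. Its level was 605, 625, and 574 CPM for unstimulated scramble cells against 745, 738, and 709 CPM for unstimulated shSrsf3 cells. In stimulated cells these values were 580.2, 609, and 569 CPM against 691, 692, and 667 CPM. There was no overlap between scramble and shSrsf3 samples in either condition. The log2 fold change was 0.28 ± 0.039 SE without ligand (adjusted p = 5.95e-05) and 0.22 ± 0.039 with ligand (adjusted p = 4.71e-04).

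The tropomyosins differed less between the lines. *Tpm1* (ENSMUSG00000032366.17, chr9:66929870-66956953, minus strand) had 3854, 3939, and 3627 CPM in unstimulated scramble cells and 3674, 3718, and 3634 CPM in unstimulated shSrsf3 cells, which overlapped. The stimulated scramble cells had 3739, 3780.2, and 3858 CPM and the stimulated shSrsf3 cells 3465, 3580.2, and 3473 CPM, which did not overlap. Its log2 fold change was -0.05 without ligand (95% interval -0.12 to 0.02, adjusted p = 0.201) and -0.11 with ligand (adjusted p = 0.00987). Without scramble -PDGF-AA replicate 3, the former was -0.07 (adjusted p = 0.0377). Whether these 2 values differ was tested by the interaction below. *Tpm2* (ENSMUSG00000028464.18, chr4:43514697-43524949, minus strand) had 652, 666, and 528 CPM in unstimulated scramble cells and 658, 653, and 647 CPM in unstimulated shSrsf3 cells. After stimulation these were 532, 601, and 555 CPM against 606, 666, and 634 CPM, without overlap. The spread within scramble -PDGF-AA samples, 12.3% of their mean, was the widest of any of the 10 genes in any group. The log2 fold change of *Tpm2* was 0.09 without ligand (95% interval -0.07 to 0.24, adjusted p = 0.364) and 0.18 with ligand (95% interval 0.02 to 0.33, adjusted p = 0.0689). Without the 3 libraries of lowest mapping rate, these values were 0.30 and 0.23. With 1 library left out, the value with ligand passed without scramble -PDGF-AA replicate 3 (0.18, adjusted p = 0.00394) or scramble +PDGF-AA replicate 2 (0.23, adjusted p = 0.0365), and it passed in DESeq2 (adjusted p = 0.0274) and with a replicate block (adjusted p = 0.0429). *Tpm1* has 44 annotated coding transcripts and *Tpm2* has 29, among which muscle and non-muscle forms differ in alternative exons. The counts hold 1 value per gene, so forms of 1 gene cannot be told apart in them.

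Of the genes for proteins at filament crosslinks and adhesions, *Actn1* was lower in shSrsf3 samples and *Vcl* did not pass the test. *Actn1* (ENSMUSG00000015143.17, chr12:80212233-80307547, minus strand, 21 exons) had 1189.7, 1184, and 1067 CPM in unstimulated scramble cells and 943, 910.2, and 960.3 CPM in unstimulated shSrsf3 cells. In stimulated cells it had 1136, 1154, and 1131 CPM (scramble) against 919, 932, and 963 CPM (shSrsf3). All 6 shSrsf3 values were below all 6 scramble values. The fall was 1.22-fold in both comparisons (log2 fold change -0.29 ± 0.041 SE, adjusted p = 6.84e-05, without ligand and -0.28 ± 0.041, adjusted p = 9.38e-05, with ligand). Without the 3 libraries of lowest mapping rate, the log2 fold change was -0.19 without ligand. The related *Actn4* had log2 fold changes of -0.03 and -0.01 (adjusted p = 0.570 and 0.911).

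*Vcl* (ENSMUSG00000021823.12, chr14:20979449-21083758, plus strand, 22 exons) had 1853, 1748, and 1757 CPM in unstimulated scramble cells and 1869, 1836, and 1921 CPM in unstimulated shSrsf3 cells, which overlapped. With ligand, the scramble replicates had 1985, 1892, and 1949 CPM and the shSrsf3 replicates 1861, 1852, and 1816 CPM, which did not overlap. Its log2 fold change was 0.07 without ligand (95% interval 0.00 to 0.14, adjusted p = 0.0845) and -0.08 with ligand (95% interval -0.14 to -0.01, adjusted p = 0.0731). Neither passed the test. Under other settings, the former passed without scramble -PDGF-AA replicate 1 (0.10, adjusted p = 0.0326). The latter passed without scramble +PDGF-AA replicate 2 (-0.09, adjusted p = 0.0490) and with upper-quartile factors on all libraries (-0.08, adjusted p = 0.0416). Its value was -0.09 without the 3 libraries of lowest mapping rate.

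**Figure D3:**
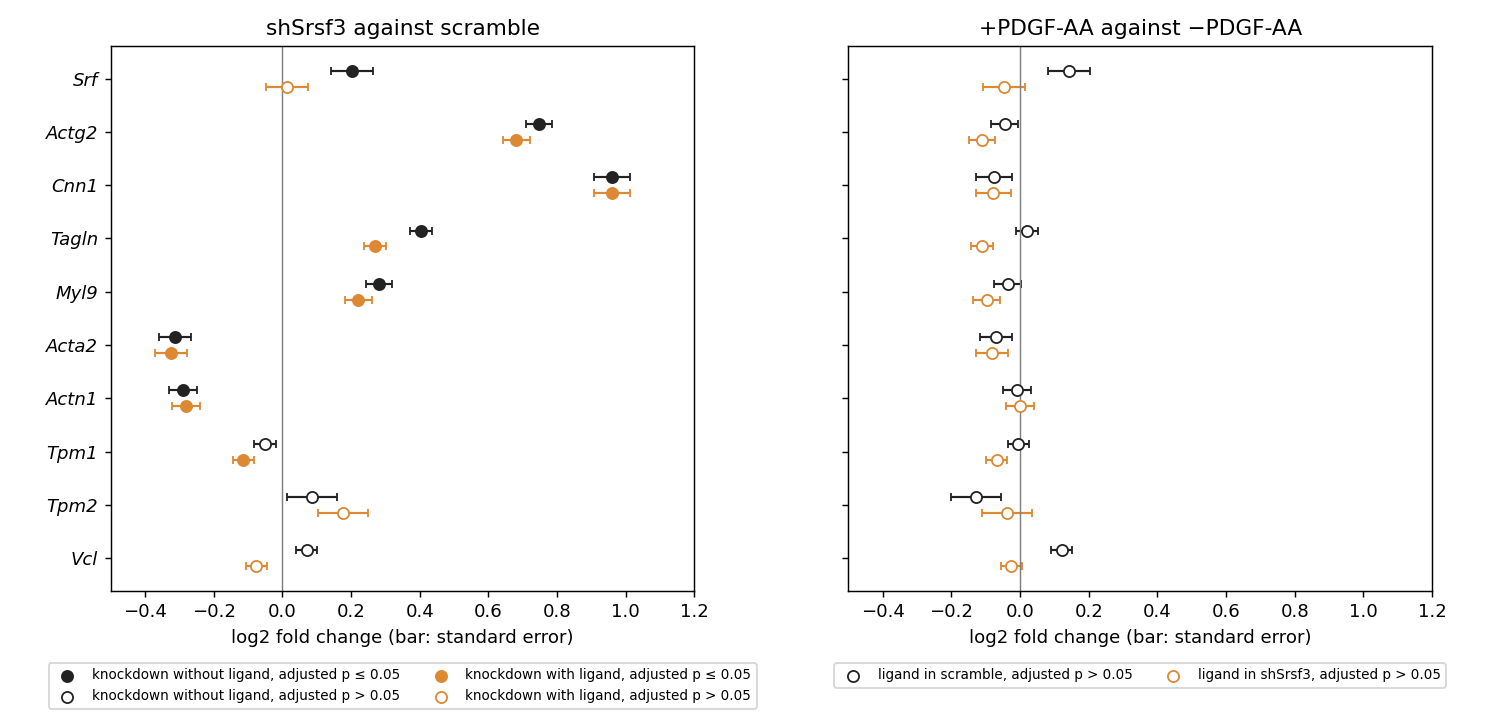
Log2 fold change with its SE (horizontal axes) of the 10 genes in shSrsf3 against scramble samples (left) and in +PDGF-AA against -PDGF-AA samples (right); filled points have an adjusted p of 0.05 or less in edgeR's test. *Cnn1* at 0.96 and *Actg2* at 0.75 and 0.68 lie farthest to the right, *Acta2* and *Actn1* lie left of 0, and no point of the right panel is filled.

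Upon PDGF-AA stimulation of scramble cells, none of the 10 genes passed edgeR's test, where 4.04% of all genes did. At an unadjusted p under 0.05 there were 2 (*Srf* and *Vcl*), compared to 17.6% of all genes, and DESeq2 called 1 (*Vcl*). The log2 fold changes lay between -0.13 (*Tpm2*) and 0.14 (*Srf*), and their 95% intervals between -0.29 and 0.27. *Vcl* was the 1 gene whose groups did not overlap, compared to 18.8% of all genes, with 1748 to 1853 CPM without and 1892 to 1985 CPM with ligand. Its log2 fold change was 0.12 ± 0.032 SE (adjusted p = 0.0504 from edgeR's test and 0.00712 from DESeq2). The median of the 10 genes was -0.02, and that of all genes -0.01. *Srf* had a log2 fold change of 0.14 (95% interval 0.01 to 0.27, adjusted p = 0.245) and of 0.29 without the 3 libraries of lowest mapping rate. Without scramble -PDGF-AA replicate 3 it was 0.07 (adjusted p = 0.312), while *Acta2* (-0.13, adjusted p = 0.0114), *Tpm2* (-0.22, adjusted p = 0.0152), and *Vcl* (0.12, adjusted p = 0.0438) passed the test. The effect of the ligand on *Srf*, *Acta2*, and *Tpm2* in scramble cells thus depended on that replicate.

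In shSrsf3 cells, PDGF-AA stimulation also changed none of the 10 genes at an adjusted p of 0.05 or less in edgeR's test (0.565% of all genes) or in DESeq2. At an unadjusted p under 0.05 there were 4 (*Actg2*, *Tagln*, *Myl9*, and *Tpm1*), compared to 9.44% of all genes, each lower with ligand. The log2 fold changes lay between -0.11 (*Tagln*) and 0.00 (*Actn1*), with 95% intervals between -0.20 and 0.12. They were below 0 for 9 of the 10 genes, with a median of -0.07 against 0.00 for all genes. The groups did not overlap for 5 genes (*Acta2*, *Actg2*, *Tagln*, *Myl9*, and *Tpm1*), compared to 18% of all genes. *Tagln* had the lowest adjusted p of the 10, at 0.182.

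Whether the ligand acted differently in the 2 lines was tested by the interaction, which was called for none of the 10 genes in edgeR's test (0.0133% of all genes) or in DESeq2. At an unadjusted p under 0.05 there were 3 (*Srf*, *Tagln*, and *Vcl*), compared to 5.54% of all genes. The interaction of *Srf* was -0.19 (95% interval -0.38 to -0.00, adjusted p = 0.874), that of *Tagln* was -0.13 (-0.23 to -0.04, adjusted p = 0.807), and that of *Vcl* was -0.15 (-0.24 to -0.05, adjusted p = 0.715). For *Tpm1* it was -0.06 (-0.16 to 0.03, adjusted p = 0.882). Without the 3 libraries of lowest mapping rate, the interaction of *Srf* was -0.34.

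Other genes of the pathway give the setting of these values. The immediate early genes, which SRF controls together with Elk factors, responded to the ligand. In scramble cells, 7 of 9 rose, 4 of them by at least 2-fold, where 0.200% of all genes changed by at least 2-fold. *Egr3* went from 12.5 ± 1.44 to 66.2 ± 8.95 CPM (log2 fold change 2.41, adjusted p = 3.08e-07), *Nr4a1* and *Egr1* rose by 1.59 and 1.44 on the log2 scale, and *Egr2* went from 17.5 ± 2.58 to 45.8 ± 7.85 CPM. In shSrsf3 cells, 6 rose, 3 of them by at least 2-fold (0.0399% of all genes), and *Fos* fell by 0.58 on the log2 scale. Of the same 9 genes, 6 were higher and 1 was lower in shSrsf3 samples without ligand, with *Nr4a1* at 115 ± 27.2 and 350.1 ± 46.3 CPM (log2 fold change 1.61, adjusted p = 2.09e-06). With ligand, 4 were higher and 1 was lower, *Egr3* (-0.86, adjusted p = 5.41e-05).

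Among 18 other targets of MRTF and SRF, 5 were higher, 4 were lower, and 9 did not differ in shSrsf3 samples without ligand. With ligand, 1 was higher, 5 were lower, and 12 did not differ, and the median was 0.00 without and -0.06 with ligand. The share that differed without ligand, 9 of 18, is near the 45.9% of all genes. This list shares genes with those below, so their counts are not independent. *Actb* and *Actg1* are among the 5 higher genes here and are counted again as paralogs. *Itga5*, *Fermt2*, and *Zyx* are also in the focal adhesion list, and *Pdlim7* is also in the smooth muscle list. *Ankrd1*, for a muscle ankyrin repeat protein, was lower (259 ± 36.3 and 171 ± 2.13 CPM without ligand, log2 fold change -0.60 and, with ligand, -0.83), as was *Tuft1* (-0.28 and -0.46). *Itga5*, the α5 subunit of the fibronectin receptor, was higher (0.44 and 0.33). None of the 18 changed upon stimulation of scramble cells in edgeR's test, with 4 at an unadjusted p under 0.05 and 1 in DESeq2.

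Of 15 other genes listed with smooth muscle contraction, 3 were higher and 4 were lower without ligand, and 3 were higher and 3 were lower with ligand (medians of -0.06 and -0.11). *Myh11*, the heavy chain of smooth muscle myosin, rose from 4.70 ± 0.232 CPM in unstimulated scramble cells to 10.2 ± 1.30 CPM in unstimulated shSrsf3 cells (log2 fold change 1.10, adjusted p = 1.74e-06, and 0.98 with ligand). *Csrp1*, a LIM protein of the actin cytoskeleton, was higher by 0.22 and 0.18. *Mylk*, the kinase that phosphorylates myosin regulatory light chains, was lower (22.3 ± 2.43 and 13.9 ± 0.489 CPM, log2 fold change -0.69, adjusted p = 2.99e-06, and -0.88 with ligand). *Csrp2*, a LIM protein of smooth muscle, was also lower (-0.62 and -0.66). *Fbxo32* is a ubiquitin ligase of muscle and not a contractile protein, and was among the 4 lower without ligand (-0.24). It fell upon stimulation of scramble cells (-0.54, adjusted p = 0.00249) and was the 1 gene of this list that did.

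Among 14 tested paralogs of the 10 genes, 5 were higher, none was lower, and 9 did not differ without ligand. With ligand, 3 were higher and none was lower (medians of 0.09 and 0.03). Of all genes, 45.9% and 41.0% differed in these comparisons, and 22.2% and 20.3% were higher. *Actn3*, the α-actinin of fast skeletal muscle, was at 2.77 ± 0.480 and 5.19 ± 0.285 CPM (log2 fold change 0.91 and, with ligand, 0.74), and *Myl6*, an essential myosin light chain, was higher by 0.17 and 0.09. No paralog passed edgeR's test upon stimulation of scramble cells, with 1 at an unadjusted p under 0.05 and 0 in DESeq2. In shSrsf3 cells, *Acta1* fell by 0.32 on the log2 scale (adjusted p = 0.00418).

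Of 16 focal adhesion genes, 9 were higher and none was lower without ligand, and 6 were higher and 2 were lower with ligand (medians of 0.18 and 0.09), where 22.2% and 20.3% of all genes were higher. They included *Tns1* (0.50 and 0.55), *Parva* (0.31 and 0.27), and *Vasp* (0.27 and 0.20), which encode adhesion adaptors and a regulator of actin assembly. None of the 16 passed edgeR's test upon stimulation of scramble cells, with 4 at an unadjusted p under 0.05 and 1 in DESeq2, and in shSrsf3 cells *Lims2* fell (-0.34, adjusted p = 0.0111).

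**Figure D4:**
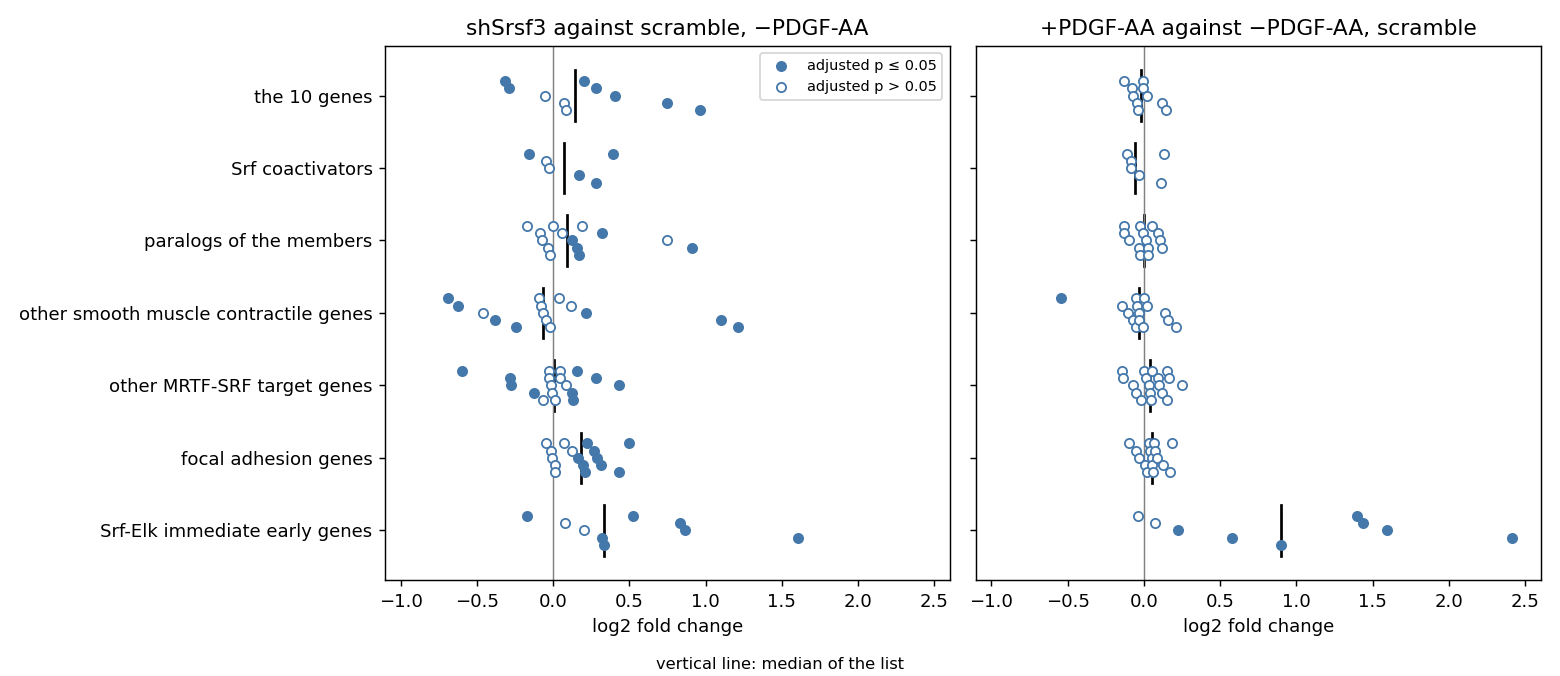
Log2 fold change (horizontal axes) of the genes of the lists described, 1 point per gene, in shSrsf3 against scramble samples without ligand (left) and upon PDGF-AA stimulation of scramble cells (right); filled points have an adjusted p of 0.05 or less in edgeR's test and vertical lines are medians. The 10 genes and the other genes listed with smooth muscle contraction spread to both sides on the left, where no filled focal adhesion gene lies below 0. These lists stay near 0 on the right apart from *Fbxo32* at -0.54, and 7 of the 9 immediate early genes are filled, up to 2.41 for *Egr3*.

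Genes with the pattern most like that of *Srf* and *Acta2* over the 12 samples were sought among 12153 genes outside the lists, by Pearson's r of log2 CPM. The 5 most like *Srf* were *Slain2* (r = 0.886), *Avpi1* (0.875), *Metrnl* (0.870), *Akap1* (0.869), and *Pip5k1a* (0.863). Those most like *Acta2* were *Msrb3* (0.986), *Zfp146* (0.983), *Tmsb4x* (0.983), *Gadd45g* (0.980), and *Sec22b* (0.980). *Acta2* was lower in every shSrsf3 sample than in every scramble sample, so that its values of r describe mainly the difference between lines. *Srf* overlapped between the lines with ligand, and its values of r cannot be read in this way. All are given without a test. *Tmsb4x* encodes thymosin β4, which binds monomeric actin, and had log2 fold changes of -0.81 and -0.68 between the lines, without and with ligand.

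Markers of other cell types were summed in each group beside these results. The summed mesenchyme markers, mainly collagen genes and *Vim*, were lower in shSrsf3 samples (31515 to 33800 CPM) than in scramble samples (35256 to 37042 CPM). By count, 1 of the 9 was higher and 5 were lower without ligand, and 1 was higher and 4 were lower with ligand. The summed smooth muscle markers overlapped between the lines, at 449 to 568 CPM in scramble and 500.2 to 558 CPM in shSrsf3 samples. This sum is mainly that of *Smtn* and *Lmod1* (mean counts of 12440 and 12217). By count, 2 of the 5 tested (*Myh11* and *Des*, mean counts of 349 and 13.2) were higher and none was lower in both comparisons. Of all genes, 22.2% were higher without and 20.3% with ligand. Of 5 pericyte markers, 3 were tested, with a sum of 93.5 to 114 CPM in scramble and 164 to 208 CPM in shSrsf3 samples. This sum is mainly that of *Cspg4* (mean count of 6082). Without ligand, *Cspg4* was higher (log2 fold change 1.11), whereas *Rgs5* (-0.81) and *Notch3* were lower. The summed endothelium markers were also apart, at 30.5 to 34.6 CPM in scramble and 19.1 to 22.6 CPM in shSrsf3 samples. This sum is mainly that of *Tek* (mean count of 1305), which was lower in shSrsf3 samples. By count, 2 of the 4 endothelium markers were higher and 1 was lower in both comparisons. Low sums were apart as well for epithelium (2.09 to 3.30 against 0.537 to 0.998 CPM) and cardiac muscle (1.96 to 2.91 against 1.15 to 1.61 CPM). Those of leukocytes (at most 2.34 CPM) and skeletal muscle (at most 1.86 CPM) overlapped between the lines. The part of these differences in the levels of the 10 genes was not tested.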

How the data were processed

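RNA-seq libraries were prepared with a stranded kit from 3 biological replicates in each of 4 conditions. The authors trimmed reads with BBDuk, quantified transcripts with Salmon 1.4.0 against GENCODE M26 (GRCm39), and summed them per gene with tximport. The deposited values are expected counts, of which 16.3% were not whole numbers. They were treated here as estimated counts not scaled to library size, and the tests made no correction for transcript length. How tximport scaled them and which strand setting was used are not given in the sources used here. Of the 10 genes, 8 overlap a gene of the opposite strand and 2 a gene of the same strand.

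Here, the counts were rounded, filtered with filterByExpr (minimum count 10), and scaled with TMM factors in edgeR 4.0.16 with R 4.3.3. CPM use these factors. The quasi-likelihood test was fitted to 15037 genes in 1 model with 4 group means and all 12 samples, and p-values were adjusted by Benjamini-Hochberg over all genes tested. SE and 95% intervals follow from the F statistic. They measure the spread between these cultures of 1 line per shRNA. The scripts were tested on simulated data with known changes. An exact permutation test of 3 against 3 samples cannot go below p = 0.1. DESeq2 1.42.0 was an alternative. No 2 samples had identical columns.

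The members and lists were chosen with earlier results of these data known. All 10 members are named with every value. From each other list, up to 4 genes with the largest log2 fold change without ligand were named among those that passed the test in the same direction in both comparisons of scramble and shSrsf3 samples (mean count of 50 or more), and up to 4 by the same rule for ligand in scramble cells, with *Mrtfa*, *Mrtfb*, *Myocd*, *Actb*, and *Actg1* in any case. Other genes named were chosen after their values were seen. The results of 1 list are not reported here. Gene coordinates and shared 31-base sequences are from GENCODE M39 on GRCm39, matched by symbol, and promoter windows are from RefSeq on GRCm38.p6. Python 3.11, pandas 2.3.3, numpy 2.4.6, and matplotlib 3.10.9 were also used. No column of the table was left out.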

Additional observations from a re-analysis of the deposited data

How the results depend on the processing

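Each value of the 10 genes was recomputed under up to 19 alternatives: DESeq2, its size factors in edgeR, upper-quartile factors, no low-count filter, a replicate block, each of the 12 libraries left out, the 3 libraries of lowest mapping rate left out, and only the groups compared. Values that passed the test in the comparisons of scramble and shSrsf3 samples kept their direction in every alternative. They also passed in every alternative in which the test was considered. The test was not considered in the fit without the 3 libraries, of which only the effect size is given. With the 2-fold minimum, 0 of 10 genes passed in either comparison. Without the 3 libraries, the log2 fold change of *Cnn1* without ligand was 1.08. The count of genes that changed upon stimulation of scramble cells was 1 in DESeq2, 1 with its size factors, 2 without the low-count filter, and 1 with the replicate block. With 1 library left out, this count was 0 to 3 (1 when replicate 1 of scramble -PDGF-AA or replicate 2 of scramble +PDGF-AA was left out, and 3 when replicate 3 of scramble -PDGF-AA was). The interaction of *Srf* was -0.34 without the 3 libraries. Replicate numbers were shared between groups but did not pair the samples (deviations of same-numbered samples correlated at -0.38 to 0.44, and 3 of 12 samples correlated best with their own number), and the block left 7 and 8 genes that differed between the lines without and with ligand.

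Values that changed sign had not passed the test, and the cause was not tested. Without the 3 libraries, the log2 fold change upon stimulation of scramble cells was 0.0568 for *Acta2*, 0.0600 for *Cnn1*, 0.0621 for *Tpm1*, 0.0358 for *Tpm2*, and 0.0826 for *Actn1*, that of *Tpm1* between the lines without ligand was 0.0142, and the interaction was -0.0731 for *Tpm2* and -0.0813 for *Actn1*. For *Tpm1* upon stimulation of scramble cells it was 0.0028 in DESeq2, 0.0027 with its size factors, and 0.0001 without the low-count filter. For *Actn1* in shSrsf3 cells it was -0.0098 with upper-quartile factors and -0.0045 without the filter, and its interaction was -0.0018 without the filter. With 1 library left out, the ranges were -0.0082 to 0.0404 for *Srf* between the lines with ligand, -0.0498 to 0.0469 for *Acta2* for the interaction, -0.0462 to 0.0486 for *Cnn1* for the interaction, -0.0285 to 0.0198 for *Tpm1* upon stimulation of scramble cells, -0.0017 to 0.1460 for *Tpm2* between the lines without ligand, -0.0472 to 0.0189 for *Actn1* upon stimulation of scramble cells, -0.0212 to 0.0172 for *Actn1* upon stimulation of shSrsf3 cells, and -0.0189 to 0.0485 for *Actn1* for the interaction. These genes had at least 5112 counts per sample, and the part of depth in these values was not tested.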
